A study of Mus musculus with 9 samples.

Results

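The genes described here make ribosomes. They are 37 genes for nucleolar proteins, RNA polymerase I subunits, small nucleolar ribonucleoprotein (snoRNP) proteins and assembly factors of the ribosomal subunits. They were chosen by gene symbol, as the rows of the deposited count table whose Ensembl identifier maps to the symbol, and the rule uses no measured value. All 37 were found among the 29229 genes of the table, and all 37 had enough counts to be tested. The lowest count of any of them in a library was 1865, for Gar1.

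Ribosomes are built mostly in the nucleolus. RNA polymerase I transcribes a long precursor ribosomal RNA there, snoRNPs modify it, a large processing complex cuts out and folds the small subunit RNA, and further factors assemble the large subunit before both are exported. A resting T cell holds few ribosomes, and activation by antigen brings on cell growth and ribosome production, in which the transcription factor MYC is a known driver.

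Gene expression was measured by total RNA sequencing of donor T cells in mouse stem cell transplantation. Donors were C57BL/6 mice, which carry the CD45.2 form of the leukocyte marker CD45. Naive libraries came from healthy C57BL/6 mice without a transplant. Syngeneic recipients were B6.SJL-Ptprca Pepcb/BoyJ mice (H-2b, CD45.1) given 9.5 Gy of radiation and 8500000 donor T cells. Allogeneic recipients were CByJ.SJL(B6)-Ptprca/J mice (H-2d, CD45.1) given 8 Gy in a split dose and 1000000 donor T cells. Both kinds of recipient also received 5000000 marrow cells depleted of T cells, from C57BL/6 donors, and acidified water, and spleens were taken on day 7. Mice were females aged 8 to 12 weeks. Live cells positive for CD3 and CD45.2 were sorted, a gate that cells grown from the donor marrow can also carry. Each group had 3 libraries, and each transplant library pooled 2 to 4 recipients. Radiation dose, T-cell number and recipient strain all differ between the transplant groups, so their parts in a difference cannot be told apart. A strain tag in the labels names the syngeneic recipient for all 9 libraries and goes against the protocols, and groups were taken from the titles.

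Libraries held 103953932 to 176678189 counts. Levels are given as CPM, the counts of a gene per 1000000 counts of the library. A gene was called when the quasi-likelihood test of edgeR gave a Benjamini-Hochberg adjusted p under 0.05 over the 19609 genes tested, and a log2 fold change is followed by its standard error. The p-values measure the spread between pools of recipients, or between naive libraries, whose pooling the labels do not give. A locus of ribosomal RNA took 15.8 to 18.8% of naive, 19.4 to 22.4% of syngeneic and 7.87 to 17.2% of allogeneic counts. No replicates were alike within counting noise. Allogeneic library 1 stood apart from the other two, with a chi-square per degree of freedom of 362 and 335 against 44.6 between libraries 2 and 3. Syngeneic library 1 also stood apart, with 136 and 114 against 33.3 between syngeneic libraries 2 and 3. All 11 T-cell markers were detected in each library, with summed levels between 5631 and 6196 CPM for naive, 4317 and 5396 CPM for syngeneic and 5664 and 6196 CPM for allogeneic libraries.

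In T cells from syngeneic recipients most of the ribosome biogenesis genes stood above their naive level, and in T cells from allogeneic recipients fewer did. The 37 genes together took 3188, 3146 and 3275 CPM in naive libraries 1 to 3. They took 4354, 4097 and 4259 CPM in the syngeneic libraries, and 3342, 3136 and 3493 CPM in the allogeneic ones. The syngeneic sums lay above all others, while the allogeneic and naive sums overlapped. By group mean CPM, 22 genes were in the order syngeneic, naive, allogeneic from high to low, and 9 in the order syngeneic, allogeneic, naive. In 3 the allogeneic mean was the highest, above the syngeneic and then the naive one, and in the remaining genes the naive mean was the highest.

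Between syngeneic and naive cells, 23 of the 37 genes (62.2%) rose and 0 fell, where 22.4% of all tested genes rose and 19.5% fell. The median log2 fold change of the 37 was 0.34, against 0.01 over all genes tested, and 35 of 37 were positive. At an unadjusted p under 0.05 the edgeR test put 24 higher and 0 lower, and DESeq2 called 22 higher and 0 lower. The CPM ranges of the groups did not overlap, with the syngeneic side higher, for 28 of the 37, against 25.4% of all tested genes, and with it lower for 2, against 31.1%. The count of 23 fell to 14 without naive library 2 and to 15 without syngeneic library 1. The same 14 genes were called under every alternative tried: Ncl, Npm1, Ddx21, Gnl3, Nop56, Nop58, Nolc1, Dkc1, Gar1, Utp20, Bysl, Nop2, Noc2l and Rrp1b.

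Between allogeneic and naive cells, 6 genes (16.2%) rose and 6 (16.2%) fell, while 31.8% of all tested genes rose and 25.9% fell. The median log2 fold change was -0.01, equal to the -0.01 over all genes. Ncl, Ddx21, Nhp2, Bysl, Bop1 and Rrp1b rose, and Polr1a, Polr1b, Utp20, Tsr1, Nop14 and Nop10 fell. The CPM ranges of these groups did not overlap, with the allogeneic side higher, for 6 genes, against 32.5% of all tested genes, and with it lower for 11, against 32.6%. Scaling by library size alone turned the split into 6 higher and 10 lower. The lower count was 3 without naive library 1, without naive library 3 and without allogeneic library 2.

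Between allogeneic and syngeneic cells, 21 genes (56.8%) fell and 0 rose, where 20.7% of all tested genes fell and 24.3% rose. The median was -0.33 against -0.02 over all genes, and 33 of 37 log2 fold changes were negative. The CPM ranges did not overlap, with the allogeneic side lower, for 25 genes, against 25.3% of all tested genes, and with it higher for 1, against 27.4%. At an unadjusted p under 0.05 the edgeR test put 24 lower and 0 higher, and DESeq2 called 20 lower and 0 higher. Without allogeneic library 1, which stood apart, 25 fell and 0 rose, and without syngeneic library 1, 17 fell and 0 rose. This comparison shares the syngeneic libraries with the first one, so a syngeneic level that is high enters both. In bulk RNA, fewer cells of a type and less RNA per cell cannot be told apart.

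**Figure D1:**
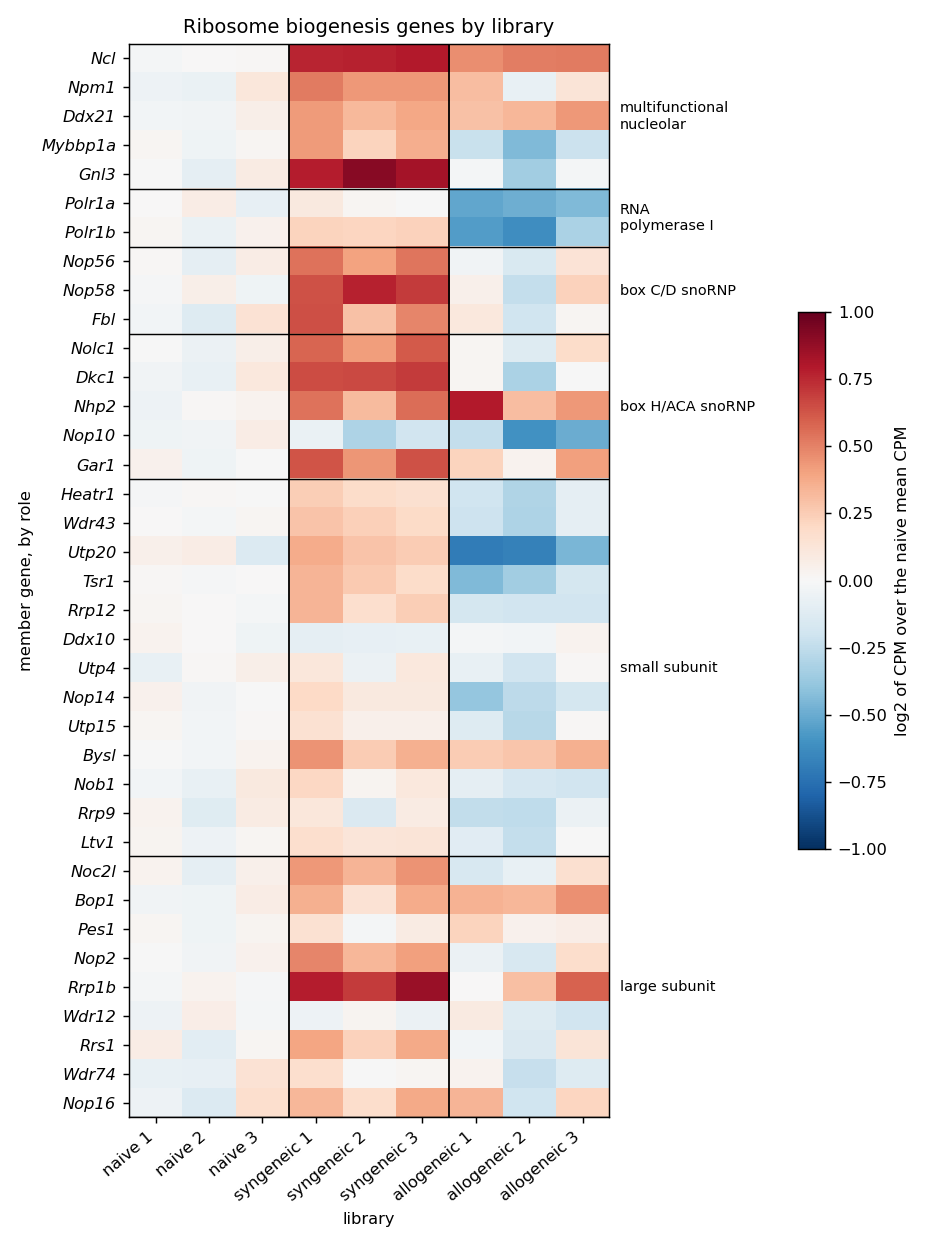
Each row is 1 of the 37 genes and each column 1 of the 9 libraries. Colour is the log2 of the CPM over the gene's naive mean CPM, red above and blue below it, and genes are sorted by role. Most rows are highest in the 3 syngeneic columns, where the summed level was 4097 to 4354 CPM.

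The 5 genes for nucleolar proteins with several functions had the largest summed CPM of the roles, carried by Ncl, Npm1, Ddx21 and Mybbp1a. All 5 rose in syngeneic cells, where 22.4% of all tested genes did. Nucleolin, encoded by Ncl (ENSMUSG00000026234, chr1:86344719-86359400 in GRCm38, minus strand), binds the nascent precursor RNA. Ncl stood at 440.2, 446 and 449 CPM in naive, 753, 757 and 772 CPM in syngeneic libraries and 613, 634 and 639 CPM in the allogeneic group. The 3 groups did not overlap, and the allogeneic level lay between the others. The edgeR log2 fold change of Ncl was 0.81 ± 0.08 in syngeneic over naive cells (adjusted p = 1.92e-05), 0.55 ± 0.08 in allogeneic over naive cells (adjusted p = 0.00017) and -0.26 ± 0.08 between the transplant groups (adjusted p = 0.0254). That last call was lost without naive 1, syngeneic 1, syngeneic 3, allogeneic 2 or allogeneic 3 (edgeR adjusted p from 0.0503 to 0.0809). A fit without the expression filter and a fit of only the compared groups lost this call too.

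Ddx21 codes for a nucleolar RNA helicase. Its level was 256, 254 and 271 CPM in naive, 349, 327 and 339.6 CPM in syngeneic libraries and 319, 327 and 351 CPM in the allogeneic group. Both transplant groups lay above the naive range and overlapped each other. Ddx21 rose by 0.42 ± 0.09 in syngeneic cells (edgeR adjusted p = 0.00281) and by 0.40 ± 0.09 in allogeneic cells (adjusted p = 0.00224), with a difference of -0.01 ± 0.09 between them (adjusted p = 0.905).

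Nucleophosmin, the product of Npm1, is a nucleolar chaperone. Npm1 was at 276, 274 and 309 CPM in naive, 411, 387 and 387 CPM in syngeneic libraries and 355, 272 and 313 CPM in the allogeneic group. The syngeneic libraries were the highest 3, and the allogeneic ones spread across and above the naive range. Npm1 rose in syngeneic cells (0.50 ± 0.14, edgeR adjusted p = 0.0116), and its allogeneic values did not pass the test against naive (0.19 ± 0.14, adjusted p = 0.252) or syngeneic cells (-0.31 ± 0.14, adjusted p = 0.0811). Without allogeneic library 1, which has the 355, Npm1 was called lower in allogeneic than in syngeneic cells (edgeR adjusted p = 0.00653).

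Gnl3 codes for nucleostemin, a nucleolar GTP-binding protein of proliferating and stem cells (ENSMUSG00000042354, chr14:31012433-31019152, GRCm38). It stood at 27.3, 25.7 and 29.0 CPM in naive, 47.1, 51.2 and 48.5 CPM in syngeneic libraries and 26.9, 21.5 and 27.0 CPM in the allogeneic group. Its naive and allogeneic ranges overlapped, and all syngeneic values were above both. Gnl3 had the largest rise of the 37 in syngeneic cells, 0.88 ± 0.12 (edgeR adjusted p = 0.000146), and the largest fall from syngeneic to allogeneic cells, -0.94 ± 0.12 (adjusted p = 8.6e-05).

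Mybbp1a, whose product is a nucleolar MYB-binding protein, rose by 0.38 ± 0.11 in syngeneic cells (edgeR adjusted p = 0.0194) and was lower in allogeneic than in syngeneic cells by -0.61 ± 0.11 (adjusted p = 0.00128). The Mybbp1a rise was lost without naive 1, naive 2 or syngeneic 1 (edgeR adjusted p from 0.0555 to 0.0740).

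**Figure D2:**
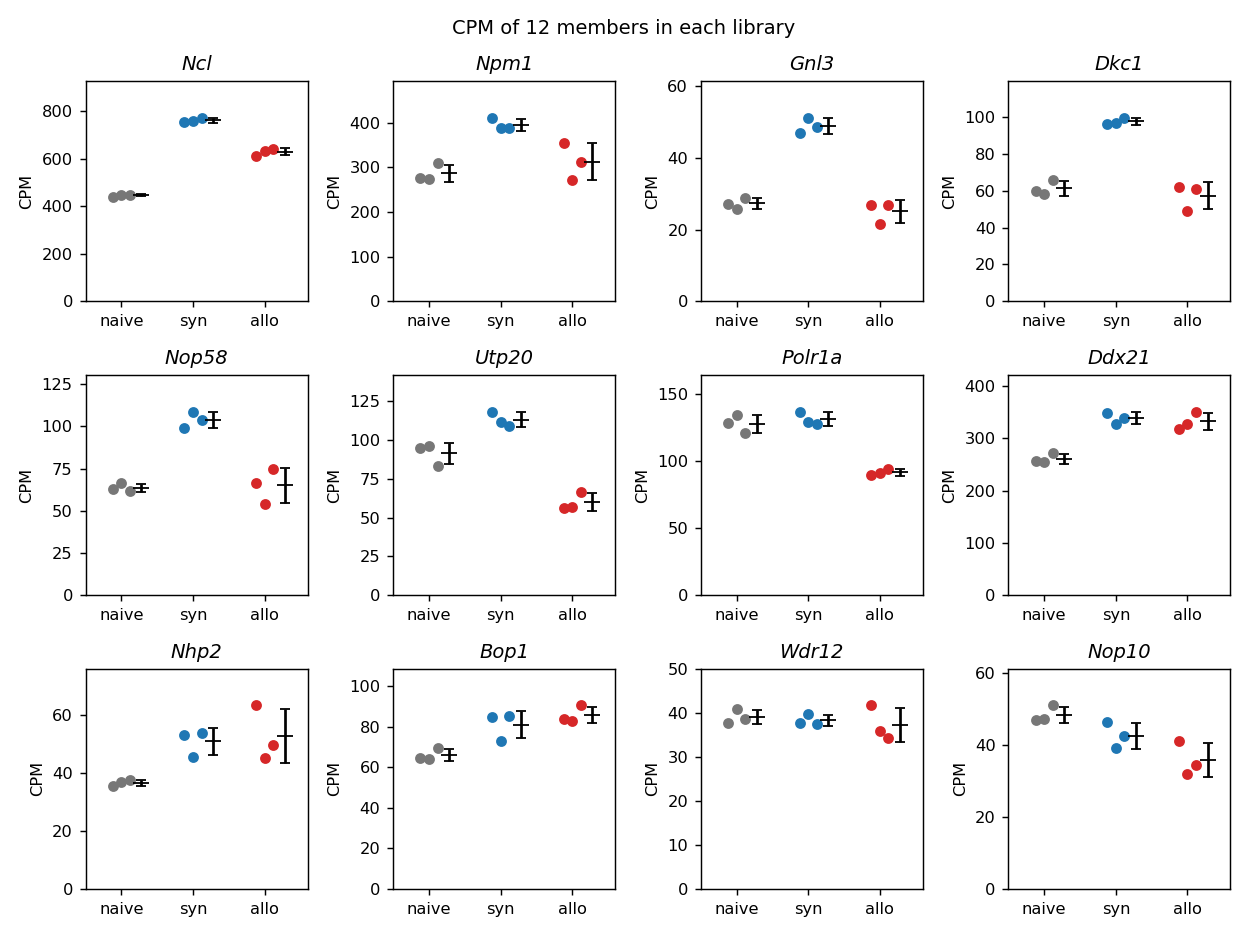
CPM of 12 of the genes in each library (points), with the mean and SD of the 3 libraries of a group (bars) and each axis from 0. Ncl has 3 separate levels, Gnl3 is high in syngeneic libraries alone, and Polr1a and Utp20 are lowest in the allogeneic ones.

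Both genes for the catalytic subunits of RNA polymerase I were lowest in allogeneic cells. Polr1a codes for the largest subunit (ENSMUSG00000049553, chr6:71909053-71984935, GRCm38). It stood at 128, 134 and 121 CPM in naive, 137, 129 and 127 CPM in syngeneic libraries and 89.2, 90.7 and 94.1 CPM in the allogeneic group. Naive and syngeneic libraries overlapped, and every allogeneic library was lower. Polr1a fell by 0.43 ± 0.08 on the log2 scale from naive (edgeR adjusted p = 0.00105) and by 0.51 ± 0.08 from syngeneic to allogeneic cells (adjusted p = 0.00055), while the syngeneic difference from naive was 0.08 ± 0.08 (adjusted p = 0.489).

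Polr1b, for the second-largest subunit, was at 56.9, 53.4 and 57.8 CPM in naive, 65.4, 65.1 and 65.9 CPM in syngeneic libraries and 38.1, 36.4 and 45.0 CPM in the allogeneic group. The 3 groups were separate, with the syngeneic on top. Polr1b fell by 0.44 ± 0.09 on the log2 scale in allogeneic against naive cells (edgeR adjusted p = 0.0016) and by 0.70 ± 0.09 against syngeneic cells (adjusted p = 0.000107). Its syngeneic rise of 0.26 ± 0.09 (edgeR adjusted p = 0.0396) was lost without any 1 of the naive or syngeneic libraries or allogeneic library 3 (adjusted p from 0.0534 to 0.148). This rise was also lost in DESeq2, with scaling by library size alone, without the ribosomal RNA locus and without the expression filter.

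Nop56, Nop58 and Fbl code for core proteins of the box C/D snoRNPs, which guide ribose methylation of ribosomal RNA. The sum of these 3 genes was 222, 214 and 231 CPM in naive, 335, 314 and 332 CPM in syngeneic libraries and 225, 195 and 245 CPM in the allogeneic group. All 3 rose in syngeneic cells, and all 3 were called lower in allogeneic than in syngeneic cells, where 22.4% and 20.7% of all tested genes were. Between allogeneic and naive cells 0 of 3 were called, where 31.8% of all tested genes rose and 25.9% fell.

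Nop58 and Nop56 code for the paired scaffold proteins of this particle. Nop58 was at 63.1, 66.3 and 61.7 CPM in naive, 99.0, 109 and 104 CPM in syngeneic libraries and 66.2, 54.1 and 74.8 CPM in the allogeneic group. Nop56 was at 112, 105 and 117 CPM in naive, 162, 147 and 162 CPM in syngeneic libraries and 109, 100.2 and 123 CPM in the allogeneic group. In both genes the syngeneic libraries were the highest, and the naive and allogeneic ranges overlapped. Nop58 rose by 0.74 ± 0.11 from naive to syngeneic cells (edgeR adjusted p = 0.000248) and fell by 0.66 ± 0.11 on the log2 scale from syngeneic to allogeneic cells (adjusted p = 0.000569). For Nop56 these changes were 0.53 ± 0.10 (edgeR adjusted p = 0.00172) and -0.50 ± 0.10 (adjusted p = 0.00277).

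Fibrillarin, encoded by Fbl, is the methyltransferase. Fbl stood at 46.1, 42.9 and 51.8 CPM in naive, 73.5, 57.5 and 66.0 CPM in syngeneic libraries and 50.4, 40.9 and 47.6 CPM in the allogeneic group. Its syngeneic values were the highest 3 but spread more widely than those of Nop56 and Nop58. Fbl rose by 0.53 ± 0.15 in syngeneic cells (edgeR adjusted p = 0.0137), lost without naive 2 (adjusted p = 0.0602), and was lower in allogeneic than in syngeneic cells by -0.49 ± 0.15 (adjusted p = 0.0191), lost without syngeneic 1 or allogeneic 2 (adjusted p from 0.0685 to 0.0814).

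The box H/ACA snoRNPs guide pseudouridylation. Of their 5 genes, 4 rose in syngeneic cells and 3 fell from there to allogeneic cells, where 22.4% and 20.7% of all tested genes did. Between naive and allogeneic cells 1 of the 5 rose and 1 fell. Neither was above the share of all tested genes, of which 31.8% rose and 25.9% fell there. Dkc1 codes for dyskerin, the pseudouridine synthase (chrX:75095854-75109777, GRCm38). Its level was 59.6, 58.2 and 65.9 CPM in naive, 96.4, 96.7 and 99.6 CPM in syngeneic libraries and 62.1, 49.1 and 61.0 CPM in the allogeneic group. Dkc1 followed the pattern of the box C/D genes, with a rise of 0.71 ± 0.12 in syngeneic cells (edgeR adjusted p = 0.000619) and a change of -0.74 ± 0.12 from there to allogeneic cells (adjusted p = 0.000441).

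Nolc1, for a phosphoprotein that accompanies snoRNPs between Cajal bodies and nucleoli, was at 82.8, 79.6 and 86.1 CPM in naive, 124, 111 and 127 CPM in syngeneic libraries and 83.9, 75.6 and 94.3 CPM in the allogeneic group. The syngeneic libraries again lay above the overlapping naive and allogeneic ranges. Nolc1 rose by 0.58 ± 0.11 (edgeR adjusted p = 0.00113) and was lower by -0.50 ± 0.11 in allogeneic than in syngeneic cells (adjusted p = 0.00301).

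Nhp2 codes for a core RNA-binding protein of the same particle. It stood at 35.4, 36.8 and 37.6 CPM in naive, 53.2, 45.6 and 53.9 CPM in syngeneic libraries and 63.4, 45.3 and 49.5 CPM in the allogeneic group. Both transplant groups were above the naive range and overlapped. Nhp2 rose by 0.52 ± 0.16 in syngeneic (edgeR adjusted p = 0.0193) and by 0.59 ± 0.16 in allogeneic cells (adjusted p = 0.0065), the largest allogeneic rise of the 37, and the transplant groups differed by 0.08 ± 0.15 (adjusted p = 0.706). The syngeneic rise of Nhp2 was lost without naive 1, naive 2, syngeneic 1 or syngeneic 3 (edgeR adjusted p from 0.0542 to 0.0663).

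The other two proteins of the core differed from each other. Nop10, the smallest of them, was lower in allogeneic than in naive cells (-0.37 ± 0.14, edgeR adjusted p = 0.0415), a call lost without any 1 naive library, syngeneic 3, allogeneic 2 or allogeneic 3 (adjusted p from 0.0566 to 0.162). DESeq2 did not call this fall either. Gar1 rose by 0.61 ± 0.12 in syngeneic cells (edgeR adjusted p = 0.00189) and was lower by -0.33 ± 0.12 in allogeneic than in syngeneic cells (adjusted p = 0.0454). That Gar1 fall was lost without any 1 naive library, syngeneic 1, syngeneic 3 or allogeneic 2 (edgeR adjusted p from 0.0596 to 0.175). DESeq2, a fit without the expression filter and a fit of only the compared groups also lost it.

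Among the 13 factors of the small subunit, 5 (38.5%) rose in syngeneic cells, where 22.4% of all tested genes did, and 6 (46.2%) fell from syngeneic to allogeneic cells, where 20.7% did. Against naive cells, 1 (7.69%) rose and 3 (23.1%) fell in allogeneic cells, neither above the 31.8% and 25.9% of all tested genes. Utp20 codes for a very large scaffold protein of the small subunit processome (ENSMUSG00000004356, chr10:88746607-88826804, GRCm38). It stood at 94.5, 96.1 and 83.3 CPM in naive, 118, 111 and 109 CPM in syngeneic libraries and 56.1, 57.1 and 66.5 CPM in the allogeneic group. The 3 groups were separate, with naive in the middle. Utp20 rose by 0.35 ± 0.09 in syngeneic cells (edgeR adjusted p = 0.00892), fell by 0.56 ± 0.09 on the log2 scale in allogeneic cells (adjusted p = 0.000284), and had the lowest p of the 37 between the transplant groups, at -0.90 ± 0.09 (adjusted p = 1.46e-05).

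Heatr1 and Wdr43 belong to the subcomplex that joins the precursor RNA as it is transcribed. Heatr1 was at 134, 136 and 135 CPM in naive, 161, 154 and 151 CPM in syngeneic libraries and 118, 109.9 and 127 CPM in the allogeneic group. Wdr43 was at 96.9, 95.5 and 98.3 CPM in naive, 118, 114 and 111 CPM in syngeneic libraries and 84.0, 78.1 and 91.1 CPM in the allogeneic group. Both genes had 3 separate groups, in the order syngeneic, naive, allogeneic. Heatr1 fell by 0.38 ± 0.09 on the log2 scale from syngeneic to allogeneic cells (edgeR adjusted p = 0.00576) and Wdr43 by 0.42 ± 0.09 (adjusted p = 0.00313). Wdr43 also rose in syngeneic cells (0.28 ± 0.09, edgeR adjusted p = 0.0293), a call lost without any 1 naive library, syngeneic 1, syngeneic 2 or allogeneic 3 (adjusted p from 0.0509 to 0.105), and Heatr1 missed the threshold there (0.24 ± 0.09, adjusted p = 0.0513). The Wdr43 rise was also lost without the expression filter.

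Tsr1, for a GTPase-like factor of late cytoplasmic steps, and Rrp12, for an export factor, rose in syngeneic cells by 0.31 ± 0.09 (edgeR adjusted p = 0.0138) and 0.30 ± 0.09 (adjusted p = 0.0242). They were lower in allogeneic than in syngeneic cells by -0.57 ± 0.09 and -0.42 ± 0.09 (edgeR adjusted p = 0.000287 and 0.00351). Tsr1 was also lower in allogeneic than in naive cells (-0.27 ± 0.09, edgeR adjusted p = 0.0201). The syngeneic rise of Tsr1 was lost without naive 2 or syngeneic 1 (edgeR adjusted p from 0.0551 to 0.0553), its fall below naive without naive 1, naive 3 or allogeneic 2 (0.0642 to 0.0789), and the rise of Rrp12 without any 1 naive library or syngeneic 1 (0.0626 to 0.0987). Without the expression filter the rise of Rrp12 was lost too. Tsr1 shares 32.3% of its exon length with Srr on the opposite strand, and the labels do not say whether the counting used strand.

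Nop14, for a scaffold of the same processome, fell from naive to allogeneic cells (-0.22 ± 0.08, edgeR adjusted p = 0.0397), lost without naive 1, naive 3, syngeneic 3, allogeneic 1 or allogeneic 2 (adjusted p from 0.0539 to 0.141), and from syngeneic to allogeneic cells (-0.40 ± 0.08, adjusted p = 0.00279). The Nop14 fall from naive was also lost in DESeq2 and without the expression filter. Bysl codes for bystin, a factor of the late small subunit precursor. Bysl rose in both transplant groups, by 0.40 ± 0.09 in syngeneic (edgeR adjusted p = 0.00592) and 0.35 ± 0.09 in allogeneic cells (adjusted p = 0.00816). It overlaps Ccnd3 on the opposite strand over 9.37% of its exon length. The remaining 6 small subunit genes, Utp4 and Utp15 of the early subcomplex, Rrp9 of the U3 particle, the helicase gene Ddx10, the endonuclease gene Nob1 and the export factor gene Ltv1, passed the test in none of the 3 comparisons, with edgeR log2 fold changes from -0.25 to 0.18.

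**Figure D3:**
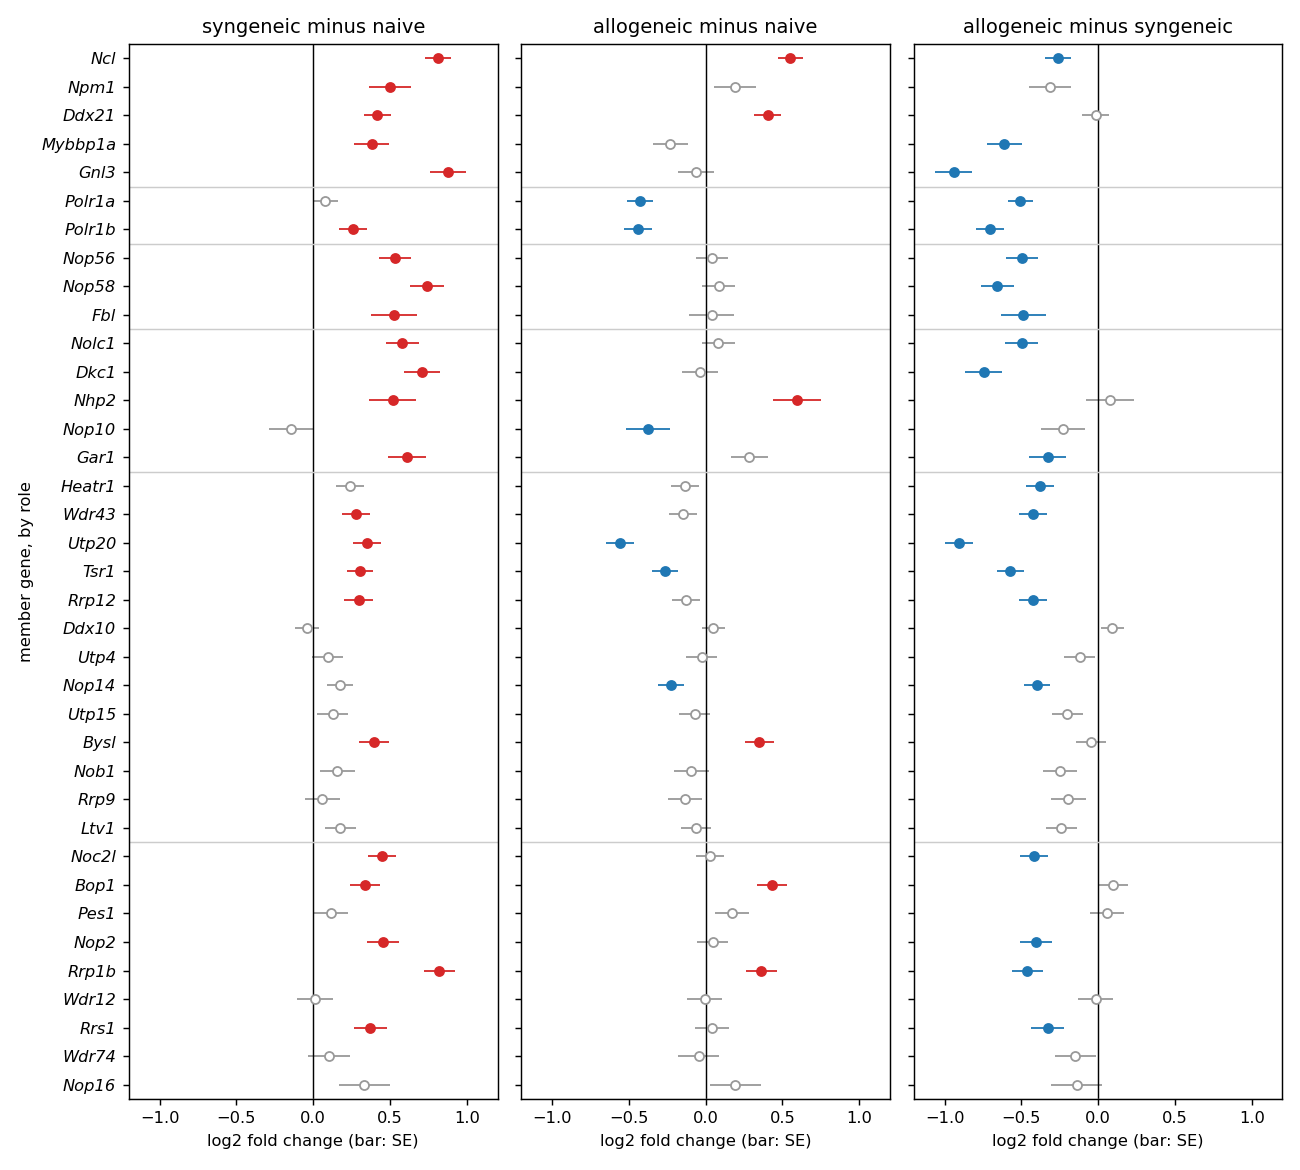
Log2 fold change of each of the 37 genes in the 3 comparisons, with its standard error, sorted by role. Filled points passed the edgeR test, red higher and blue lower, and open grey ones did not. Points for syngeneic over naive cells lie mostly right of 0, with a median of 0.34, and those for allogeneic over syngeneic cells mostly left, with a median of -0.33.

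Of the 9 large subunit factors, 5 (55.6%) rose in syngeneic cells, and 4 of them (44.4% of the 9) fell from there to allogeneic cells. Over all tested genes, 22.4% rose and 20.7% fell in these comparisons. Noc2l codes for a nucleolar protein of the early large subunit precursor. It stood at 123, 113 and 124 CPM in naive, 162, 152 and 164 CPM in syngeneic libraries and 107, 114 and 134 CPM in the allogeneic group. The syngeneic libraries were the highest 3, and the allogeneic range enclosed the naive one. Noc2l rose by 0.45 ± 0.09 in syngeneic cells (edgeR adjusted p = 0.00224) and changed by -0.42 ± 0.09 from there to allogeneic cells (adjusted p = 0.00328). It shares 20.9% of its exon length with Samd11 on the opposite strand.

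Rrp1b, for a protein that joins the early large subunit precursor, was at 50.3, 52.2 and 50.5 CPM in naive, 87.9, 82.6 and 92.6 CPM in syngeneic libraries and 51.2, 62.8 and 76.7 CPM in the allogeneic group. Syngeneic libraries were the highest, and the allogeneic ones spread from the naive level almost up to them. Rrp1b rose by 0.82 ± 0.10 in syngeneic cells (edgeR adjusted p = 7.02e-05) and was lower in allogeneic than in syngeneic cells by -0.46 ± 0.10 (adjusted p = 0.0034). Its allogeneic rise over naive of 0.36 ± 0.10 (edgeR adjusted p = 0.00959) was 0.18 without allogeneic library 3 (adjusted p = 0.115).

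Pes1, Bop1 and Wdr12 code for the 3 proteins of the PeBoW complex, which acts in large subunit RNA maturation, and of these Pes1 and Wdr12 were called in no comparison. Bop1 was at 64.3, 64.1 and 69.4 CPM in naive, 84.5, 73.1 and 85.3 CPM in syngeneic libraries and 83.7, 82.9 and 90.4 CPM in the allogeneic group. Pes1 was at 73.2, 69.8 and 73.3 CPM in naive, 80.3, 71.2 and 76.5 CPM in syngeneic libraries and 84.2, 74.4 and 75.5 CPM in the allogeneic group. Bop1 lay above naive in both transplant groups, whereas the Pes1 ranges of naive and syngeneic libraries overlapped. Bop1 rose by 0.34 ± 0.10 in syngeneic cells (edgeR adjusted p = 0.017) and by 0.43 ± 0.10 in allogeneic cells (adjusted p = 0.00289). Pes1 differed by 0.12 ± 0.11 and 0.17 ± 0.11 (edgeR adjusted p = 0.446 and 0.205), and Wdr12 by 0.01 ± 0.12 and -0.01 ± 0.12 (adjusted p = 0.955 and 0.966). The syngeneic rise of Bop1 was lost without naive 1, naive 2, syngeneic 1 or syngeneic 3 (edgeR adjusted p from 0.0603 to 0.0694).

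Nop2, for an RNA methyltransferase of the large subunit RNA, rose by 0.45 ± 0.10 in syngeneic cells (edgeR adjusted p = 0.00463) and was lower by -0.41 ± 0.10 in allogeneic than in syngeneic cells (adjusted p = 0.00827). Rrs1, for a regulator of ribosome synthesis, changed by 0.37 ± 0.11 and -0.33 ± 0.11 in the same comparisons (edgeR adjusted p = 0.0179 and 0.0302). The rise of Rrs1 was lost without naive 2, syngeneic 1 or syngeneic 3 (edgeR adjusted p from 0.0515 to 0.0780) and its fall without syngeneic 1, syngeneic 3 or allogeneic 2 (0.0733 to 0.125). Wdr74 and Nop16, for further assembly factors, were called in no comparison, with edgeR log2 fold changes from -0.15 to 0.33.

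Counts grow with transcript length, so levels of different genes were compared as CPM per kilobase of exon. The exon length covers all annotated isoforms of a gene together, and was 10188 bases for Ncl and 2665 bases for Npm1. The order of the genes on this measure therefore depends on the annotation. Npm1 was the highest, at 108 ± 7.38, 148 ± 5.17 and 117 ± 15.6 CPM per kilobase in naive, syngeneic and allogeneic cells (SD, n = 3). Ddx21 came next in naive cells with 50.3 ± 1.82 CPM per kilobase, followed by Nop10 at 43.7 ± 2.03 and Ncl at 43.7 ± 0.438 (SD, n = 3), which did not differ beyond their spread. In syngeneic cells Ncl was second, at 74.7 ± 0.952 CPM per kilobase. Wdr12 was the lowest, with 3.28 ± 0.135 CPM per kilobase in naive cells, and the exons of its annotated isoforms cover 11.955 kilobases together.

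Small nucleolar RNAs are themselves often made from introns of such genes. GENCODE places 21 snoRNA genes inside 7 of the 37, of which 15 are in the table and 14 could be tested. Their levels were very low, summing to 4.70, 4.53 and 3.50 CPM in naive, 6.78, 8.36 and 6.46 CPM in syngeneic libraries and 2.55, 2.94 and 3.23 CPM in the allogeneic group. The syngeneic sums were the highest and the allogeneic sums the lowest, without overlap. Of the 14, 5 rose in syngeneic cells, 3 fell from naive to allogeneic cells and 9 fell from syngeneic to allogeneic cells, where 22.4%, 25.9% and 20.7% of all tested genes did. Snord19, inside Gnl3, rose by 1.33 ± 0.23 in syngeneic cells (edgeR adjusted p = 0.000691) and changed by -1.72 ± 0.23 from there to allogeneic cells (adjusted p = 0.000127). Whether such reads came from the small RNA or from the host's unspliced transcript was not tested.

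MYC binds the E-box CACGTG, and its gene differed between all 3 groups. Myc averaged 140 ± 2.32 CPM in naive, 199 ± 16.1 CPM in syngeneic libraries and 87.3 ± 8.52 CPM in allogeneic libraries (SD, n = 3). Myc rose by 0.54 ± 0.09 in syngeneic cells (edgeR adjusted p = 0.000817) and fell by 0.63 ± 0.09 on the log2 scale below naive in allogeneic cells (adjusted p = 0.000154). Its difference between the transplant groups was -1.18 ± 0.10 (edgeR adjusted p = 2.96e-06).

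RefSeq promoter windows (GRCm38.p6, 250 bases before to 50 after the annotated start) were given for 32 of the 37 genes. CACGTG, which reads the same on both strands, was in the windows of 8 of the 32 (25.0%). The share was 17.9% of 106 other ribosome biogenesis genes, 11.1% of 11799 tested genes and 8.09% of all 27025 genes with a window. The 30 bases around each match are shown because they carry the motif, in capitals, 5′ to 3′ on the strand of the gene.
Nop2, chr6:125131811-125131840, plus strand: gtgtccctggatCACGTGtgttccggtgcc
Utp4, chr8:106893643-106893672, plus strand: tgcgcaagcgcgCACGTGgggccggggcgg
Ltv1, chr10:13193092-13193121, minus strand: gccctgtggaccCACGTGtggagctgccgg
Utp20, chr10:88826765-88826794, minus strand: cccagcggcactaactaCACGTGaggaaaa
Pes1, chr11:3963965-3963994, plus strand: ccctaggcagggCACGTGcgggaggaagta
Mybbp1a, chr11:72441347-72441376, plus strand: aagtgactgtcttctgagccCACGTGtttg
Tsr1, chr11:74898092-74898121, plus strand: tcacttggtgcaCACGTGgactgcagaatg
Wdr43, chr17:71616220-71616249, plus strand: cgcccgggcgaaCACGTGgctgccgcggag

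In 7 of these 8 genes the match began 3 to 41 bases after the start, and in Nop2 it began 60 bases before it. Of the 8 genes with the motif, 5 rose in syngeneic cells and 5 fell from syngeneic to allogeneic cells. Of the 24 genes without it, 13 rose and 13 fell in the same comparisons, where 22.4% of all tested genes rose and 20.7% fell. Between allogeneic and naive cells, 0 rose and 2 fell among the genes with the motif, and 5 rose and 4 fell among those without it. Of all tested genes, 31.8% rose and 25.9% fell there. The difference between genes with and without it was not tested. Utp4, Ltv1 and Pes1 hold the motif and were called in no comparison.

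A variant E-box, CACGCG or its reverse CGCGTG, was in the windows of 34.4% of the 32 genes against 18.5% of tested genes. The letters CCGGAAG or CTTCCGG, a match for ETS family factors, were in 34.4% against 18.4%. None of the matches overlapped another motif, and the median GC content was 58.8% for the 32 genes and 60.0% for tested genes. Nop2 holds an E-box and an ETS-type match in the 100 bases before its start, shown with both in capitals.
Nop2, chr6:125131783-125131882, plus strand: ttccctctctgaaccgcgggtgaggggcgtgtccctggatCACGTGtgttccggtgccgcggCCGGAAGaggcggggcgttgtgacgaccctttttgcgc

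The rest of the pathway was followed with 124 other ribosome biogenesis genes, listed by role. In syngeneic cells 34 rose (27.4%) and 6 fell (4.84%), against 22.4% and 19.5% of all tested genes, with a median log2 fold change of 0.11. In allogeneic against naive cells 35 rose (28.2%) and 21 fell (16.9%), both below the 31.8% and 25.9% of all tested genes, with a median of 0.04. In allogeneic against syngeneic cells 19 rose (15.3%) and 29 fell (23.4%), against 24.3% and 20.7% of all tested genes, with a median of -0.07. Of 14 further RNA polymerase I genes, 1 (7.14%) rose and 4 (28.6%) fell in syngeneic cells, against the 22.4% and 19.5%. In allogeneic against naive cells 3 (21.4%) of them rose and 5 (35.7%) fell, against the 31.8% and 25.9%. Of 13 exosome genes, whose products trim and degrade RNA, 8 (61.5%) rose in syngeneic and 7 (53.8%) in allogeneic cells against naive. The shares of all tested genes were 22.4% and 31.8%, and 0 of the 13 fell in either. In syngeneic cells 7 of 17 snoRNP and RNA modification genes (41.2%) rose. For small subunit genes this was 9 of 39 (23.1%), and for large subunit genes 9 of 41 (22.0%). Between allogeneic and naive cells, 16 (41.0%) of these 39 small subunit genes rose and 4 (10.3%) fell. Of the 41 large subunit genes, 5 (12.2%) rose and 10 (24.4%) fell there. Of the 17 snoRNP and RNA modification genes, 4 (23.5%) rose and 2 (11.8%) fell, where 31.8% of all tested genes rose and 25.9% fell.

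In the comparisons of allogeneic cells, the extremes of these 124 genes lay beyond those of the 37. Mdn1, for the giant ATPase that strips factors from the large subunit precursor, was at 268 ± 41.4 CPM in naive, 377 ± 15.5 CPM in syngeneic libraries and 128 ± 27.1 CPM in allogeneic libraries (SD, n = 3). Mdn1 fell by 1.02 ± 0.12 on the log2 scale from naive (edgeR adjusted p = 3.09e-05) and by 1.55 ± 0.12 from syngeneic to allogeneic cells (adjusted p = 2.75e-06). Polr1d, for a subunit shared by RNA polymerases I and III, went the other way, with 0.96 ± 0.12 over naive (edgeR adjusted p = 2.91e-05) and 0.73 ± 0.12 over syngeneic cells (adjusted p = 0.000402). Polr1d rose in the same allogeneic libraries in which Polr1a and Polr1b fell.

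Other extremes were spread over the roles. Dis3, for a catalytic exosome nuclease, and Taf1d, for a subunit of the RNA polymerase I selectivity factor, rose most in syngeneic cells (0.80 ± 0.11 and 0.71 ± 0.11, edgeR adjusted p = 0.000115 and 0.000431). Taf1c of the same factor and the polymerase subunit gene Polr1h fell there (-0.61 ± 0.11 and -0.46 ± 0.14, edgeR adjusted p = 0.000849 and 0.0205), and Polr1h was higher in allogeneic than in syngeneic cells (0.65 ± 0.14, adjusted p = 0.00291). Mphosph6, for an exosome-associated protein, rose in allogeneic over naive cells (0.95 ± 0.12, edgeR adjusted p = 5.12e-05), and Utp25, a small subunit factor, fell (-0.93 ± 0.10, adjusted p = 8.27e-06). Rrp15, for a large subunit factor, was lower in allogeneic than in syngeneic cells (-0.76 ± 0.12, edgeR adjusted p = 0.00041). Of the 124, 22 were called higher in syngeneic than in naive cells without naive library 2. The number called lower was 2 without naive 3, syngeneic 2 or syngeneic 3, 3 without naive 1 and 11 without syngeneic 1. Between the transplant groups the higher count was 9, 11 and 12 without syngeneic 2, syngeneic 3 and allogeneic 3, and the lower count 19 without allogeneic 2.

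**Figure D4:**
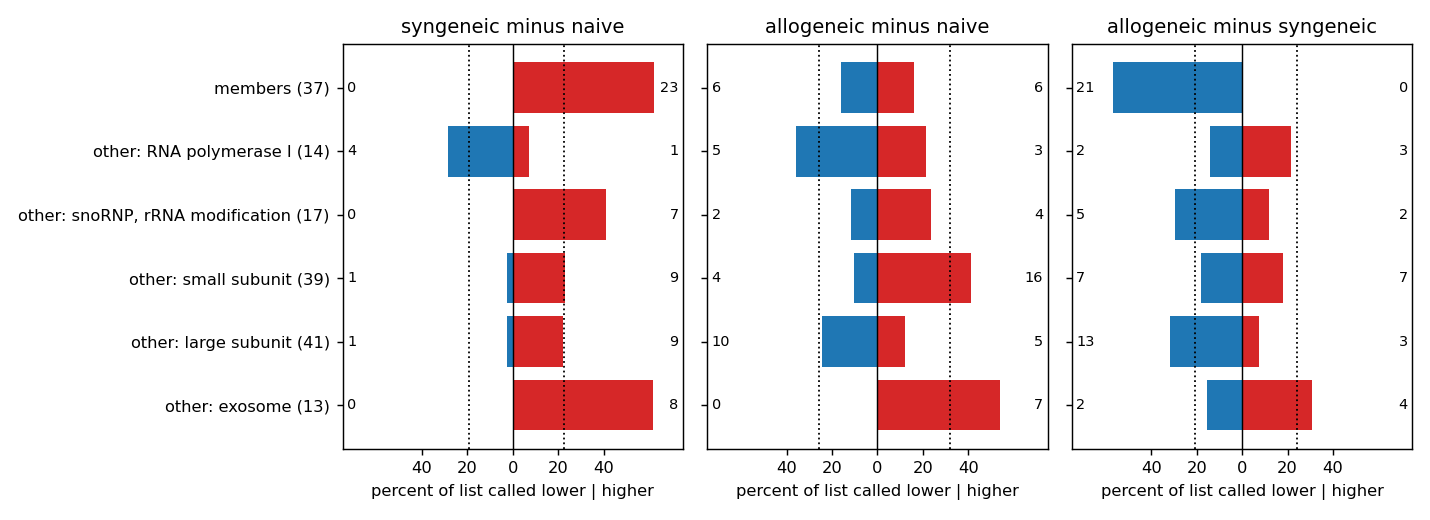
Percent of genes called higher (red, right) and lower (blue, left) by edgeR among the 37 genes and in 5 lists of other ribosome biogenesis genes, with list sizes in parentheses and counts at the edges. Dotted lines are the percent of all tested genes. In syngeneic over naive cells the 37 have 23 calls on the higher side and 0 on the lower.

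Markers of other cells and of the cell cycle also differed between the groups. The 14 erythroid markers summed to 7.61 to 9.31 CPM in naive and to 2457, 6581 and 5607 CPM in syngeneic libraries. Their sums were 29.7 to 99.1 CPM in allogeneic libraries. All 14 were called higher in syngeneic than in naive cells, where 22.4% of all tested genes were. Syngeneic library 1 had the lowest erythroid sum of its group and the highest sum of the 37 genes, at 4354 CPM. Without syngeneic library 2, which had the highest erythroid sum, 21 of the 37 genes rose and 21 fell from syngeneic to allogeneic cells. Without syngeneic library 1, 15 of the 37 genes rose. The syngeneic libraries kept in either fit still had erythroid sums of 2457 CPM or more. The part of erythroid cells was not tested.

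Neutrophil markers (8 genes) summed to 1.43 to 5.20 CPM in naive, 318 to 1073 CPM in syngeneic libraries and 425 to 789 CPM in allogeneic libraries. Macrophage markers (8 genes) summed to 3.09 to 4.12 CPM, 49.0 to 186 CPM and 47.5 to 84.7 CPM in the same order. Plasma cell markers (5 genes) were highest in allogeneic libraries, at 114 to 157 CPM against 41.7 to 46.7 CPM in naive and 50.9 to 87.4 CPM in syngeneic ones. Xbp1 had the highest mean of these 5, at 41.0, 49.2 and 86.3 CPM in naive, syngeneic and allogeneic libraries. NK-cell markers (4 genes) summed to 8.89 to 12.8 CPM in naive, 5.95 to 10.5 CPM in syngeneic libraries and 28.4 to 35.8 CPM in allogeneic ones. Klrb1c made up most of the allogeneic sum, with a mean of 30.7 CPM, and Klra8 had no count in any allogeneic library. Of the 4 genes, 2 were called higher and 2 lower in allogeneic than in naive cells. The same counts held against syngeneic cells, where 24.3% of all tested genes were higher and 20.7% lower. B-cell markers (7 genes) summed to 12.0 to 14.7, 16.1 to 20.6 and 12.9 to 14.7 CPM in that order. Of these 7, 4 were called higher than naive in each transplant group and 1 lower than naive in the allogeneic group. Of all tested genes, 22.4% were higher in syngeneic cells, and 31.8% were higher and 25.9% lower in allogeneic cells. Stem-cell markers (5 genes) summed to 8.11 to 11.7, 8.99 to 27.2 and 6.55 to 21.9 CPM. Among the macrophage and NK-cell markers, C1qa, C1qb, Mertk, Klra8 and Klra4 were at 0 in 1 to 4 libraries each. Of the 11 T-cell markers, 7 were lower and 1 higher in syngeneic than in naive cells, where 19.5% and 22.4% of all tested genes were.

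The 16 cell-cycle genes summed to 466 to 504 CPM in naive, 3272 to 4836 CPM in syngeneic libraries and 3688 to 4264 CPM in allogeneic libraries. All 16 rose in both transplant groups against naive, where 22.4% of all tested genes rose in syngeneic and 31.8% in allogeneic cells. Between the transplant groups 3 (18.8%) were higher and 1 (6.25%) lower in allogeneic cells, both below the 24.3% and 20.7% of all tested genes. The cell-cycle sums lay above naive in both transplant groups. The sums of the 37 genes lay above naive in the syngeneic libraries and overlapped naive in the allogeneic ones. The part of other cell types or of cycling cells in the results was not tested.

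**Figure D5:**
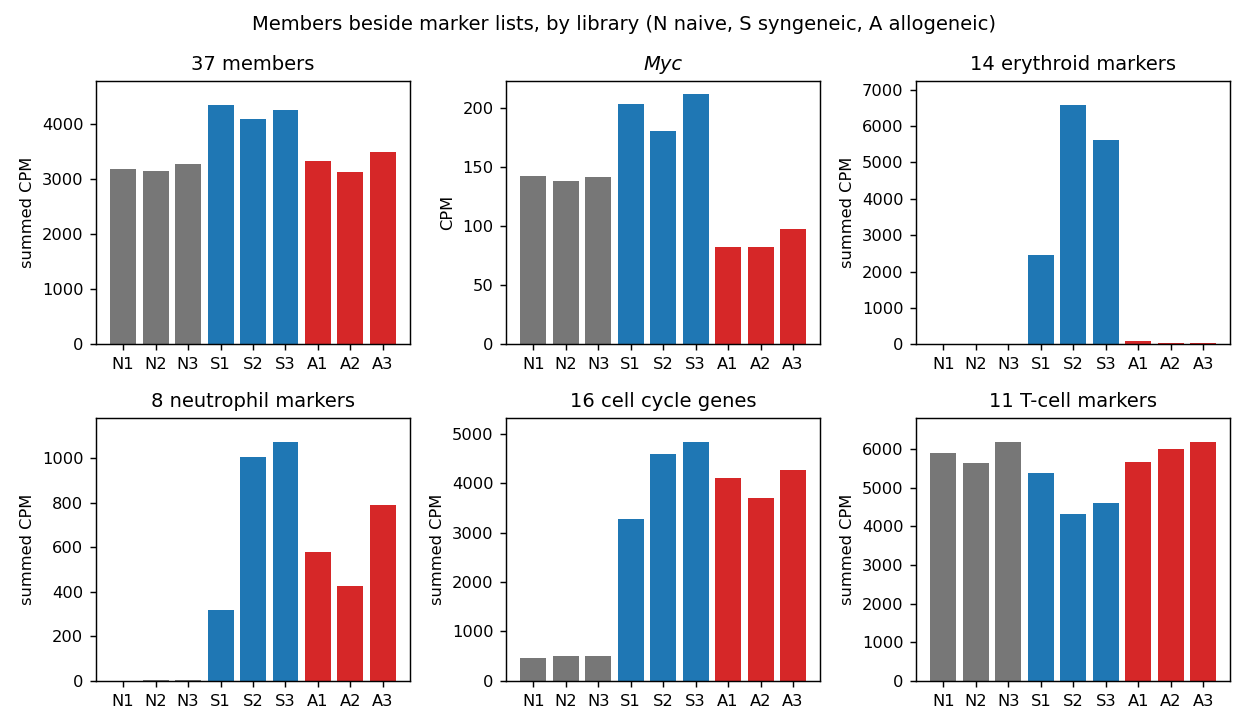
Each bar is 1 library and each axis starts at 0. Panels show the summed CPM of the 37 genes, the CPM of Myc, and the summed CPM of erythroid, neutrophil, cell-cycle and T-cell genes. The 37 genes sum to 3136 to 3493 CPM in allogeneic libraries and to 3146 to 3275 CPM in naive ones. The cell-cycle sums are 3688 to 4264 CPM and 466 to 504 CPM in the same order.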

How the data were processed

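T cells sorted from spleen gave 9 total RNA libraries, 3 per group, made with a stranded kit and ribosomal RNA depletion, per the labels' protocols. The authors deposited raw counts per gene. Per the submitters' processing notes, the GRCm38 build was used with HTSeq 0.6.1, Bowtie2 2.2.1, TopHat2 2.0.13 and FastQC 0.11.3. Not given in the sources used here are the annotation release and whether counting used strand.

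Symbols, positions and exon lengths came from GENCODE M21. CPM used each library's total count, 103953932 to 176678189. Genes passing edgeR's filterByExpr (19609) were scaled by TMM and tested in R 4.3.3 with edgeR 4.0.16 (quasi-likelihood test), in a single model over the 9 libraries whose only term was the group. Calls needed a Benjamini-Hochberg adjusted p under 0.05 over all genes tested. Alternatives were DESeq2 1.42.0, limma-voom (limma 3.58.1), other scalings, filters and samples, a replicate block, and leaving out each library.

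The 37 genes and the other lists were chosen with earlier results of these data known. All 37 are named, and library values are given for the 3 genes of highest mean CPM per role and the 3 called genes of largest change each way in each comparison. Other pathway genes are named if among the 2 called genes of largest change each way.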

Additional observations from a re-analysis of the deposited data

Results flagged for a closer look

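Polr1b, Tsr1 and Utp20 were called higher than naive in syngeneic cells and lower than naive in allogeneic cells, and drew attention because their changes went opposite ways in the transplant groups. Their difference between allogeneic and syngeneic cells was -0.70 ± 0.09 on the log2 scale for Polr1b, -0.57 ± 0.09 for Tsr1 and -0.90 ± 0.09 for Utp20. It follows from the changes against naive that picked these genes, so its direction is a description and no further support. Utp20 was called in all 3 comparisons under every alternative tried, whereas the call against naive cells was lost under some alternatives for Polr1b in syngeneic cells and for Tsr1 in both transplant groups.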

How the results depend on the processing

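Without 1 library at a time, the number of the 37 genes called higher in syngeneic than in naive cells ranged from 14 to 24, and 0 were called lower each time. Between allogeneic and naive cells 5 to 8 were higher and 3 to 6 lower, and between allogeneic and syngeneic cells 0 were higher and 17 to 25 lower. The same ranges for the 124 other genes were 22 to 39 higher and 2 to 11 lower, 27 to 37 higher and 14 to 25 lower, and 9 to 24 higher and 19 to 43 lower. Scaling by library size alone gave 10 of the 37 lower in allogeneic than in naive cells and 14 of the 124 lower in syngeneic than in naive cells, and a fit of only the compared groups gave 11 of the latter. All other alternatives stayed within 1.5 times of the counts reported. Of the 23, 12 and 21 genes called in the 3 comparisons, 14, 8 and 17 were called under every alternative.

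Signs changed only for log2 fold changes near 0 that had not passed the test. Scaling by library size alone turned the allogeneic difference from naive to -0.020 for Fbl, -0.013 for Nop56, -0.0068 for Nop2, -0.0095 for Rrs1, -0.0041 for Ddx10 and -0.020 for Noc2l, and leaving out the ribosomal RNA locus gave -0.0016 for Noc2l. For Wdr12 the syngeneic difference from naive was -0.028 with library sizes alone, -0.0034 without the ribosomal RNA locus, -0.0086 without a filter and -0.014 with only the compared groups, and its allogeneic difference was 0.011 in DESeq2. Leaving out single libraries moved the allogeneic difference from naive across 0 for Fbl from -0.0921 to 0.15, Nop56 from -0.0634 to 0.132, Nop58 from -0.0466 to 0.227, Nop2 from -0.077 to 0.143, Nolc1 from -0.0217 to 0.185, Dkc1 from -0.161 to 0.0931, Wdr12 from -0.161 to 0.0545, Wdr74 from -0.183 to 0.0545, Utp15 from -0.169 to 0.0257, Utp4 from -0.0964 to 0.0557, Rrs1 from -0.0509 to 0.133, Gnl3 from -0.18 to 0.0666, Ddx10 from -0.000379 to 0.0935, Ltv1 from -0.144 to 0.0246 and Noc2l from -0.0916 to 0.0803. The difference between allogeneic and syngeneic cells did so for Nop16 from -0.321 to 0.0328, Nhp2 from -0.146 to 0.208, Pes1 from -0.0641 to 0.151, Bop1 from -0.00716 to 0.179, Wdr12 from -0.17 to 0.0455, Ddx21 from -0.0748 to 0.0601 and Bysl from -0.13 to 0.0565, and that between syngeneic and naive cells for Wdr12 from -0.0234 to 0.045, Wdr74 from -0.00207 to 0.196, Rrp9 from -0.0386 to 0.151 and Polr1a from -0.00155 to 0.121. The cause of these shifts was not tested.

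With the replicate number as a block, 24 of the 37 genes were higher in syngeneic than in naive cells, 7 higher and 7 lower in allogeneic than in naive cells, and 22 lower in allogeneic than in syngeneic cells. Same-numbered libraries deviated from their group means with correlations from -0.118 to 0.265 across genes, and not every library correlated best with its own number, so the numbers did not show a pairing. At these depths each of the 37 genes had at least 1865 counts in every library, so the spread between 3 libraries, not counting error, limits the precision.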
